A study of Mus musculus with 16 samples.

Results

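The 9 genes described here serve glutamine use and amino acid transport, and they were taken by symbol from a gene table of 24411 rows: Slc1a5, Slc38a2 and Slc38a5 (glutamine import), Slc7a5, Slc7a11 and Slc3a2 (exchange of large neutral amino acids and cystine), and Gls2, Glul and Asns (glutamine breakdown, glutamine synthesis and asparagine synthesis). RNA-seq was available for 16 mouse libraries in 5 groups. The Th-MYCN mouse carries human MYCN under the tyrosine hydroxylase promoter, which drives it in neural crest cells, and mice homozygous for it develop neuroblastoma. The 4 groups of celiac ganglia came from mice aged 2 weeks: ganglia without the transgene and with wild-type Runx1t1 (n = 4), ganglia without it and labelled heterozygous for a Runx1t1 insertion allele (n = 3), ganglia homozygous for MYCN with wild-type Runx1t1 (n = 3), and ganglia homozygous for MYCN and labelled heterozygous for Runx1t1 (n = 2). The fifth group held tumors of mice homozygous for MYCN with wild-type Runx1t1 (n = 4), whose age is not in the labels. The genetic background was mixed, and the labels do not state that each replicate is a separate mouse, so p-values measure the spread between these samples. The human transgene has no row of its own in the table.

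Glutamine feeds cells with nitrogen and carbon. It enters mainly through the sodium-dependent exchanger encoded by Slc1a5 (ASCT2) and the system A and N carriers of the Slc38 family, and inside the mitochondrion a glutaminase such as that encoded by Gls2 turns it into glutamate. Glul, glutamine synthetase, runs the opposite reaction, and Asns uses the amide nitrogen of glutamine to make asparagine. Slc3a2 encodes the heavy chain (CD98hc, 4F2hc) that carries several light chains to the cell surface, among them Slc7a5 (LAT1), which exchanges large neutral amino acids such as leucine, and Slc7a11 (xCT), which imports cystine in exchange for glutamate. In peripheral ganglia, glutamine synthetase is a known product of satellite glia, which wrap the neuron cell bodies. Many genes of this set are textbook targets of Atf4, the transcription factor of the amino acid response, and amino acid uptake is a known part of the programme of MYC proteins in tumor cells.

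All 9 genes were placed on the mm10 assembly (RefSeq GRCm38.p6). Slc1a5 lies at chr7:16781334-16798274 on the plus strand, Slc38a2 at chr15:96687392-96699728 on the minus strand and Slc38a5 at chrX:8271381-8280179 on the plus strand. Slc7a5 lies at chr8:121881146-121907686, Slc7a11 at chr3:50364936-50499087 and Slc3a2 at chr19:8706882-8723369, each on the minus strand. Gls2 lies at chr10:128194635-128210004 and Glul at chr1:153899929-153909723 on the plus strand, and Asns at chr6:7675165-7693209 on the minus strand. RefSeq promoter entries were at hand for 6 of the 9 genes (Glul, Slc7a11, Asns, Slc38a2, Slc3a2 and Slc38a5). For Slc7a11 and Slc3a2 the start used in that entry lies inside the annotated gene span. The 250 bases before each start were searched on both strands for the C/EBP-ATF response element core TGATGNAA, through which Atf4 acts, and for the E-box CACGTG, the site of MYC proteins. The core was found in 2 of the 6 promoters, Asns and Slc7a11, against 3.45% of 32851 mouse promoters of that length. Asns held 1 match, starting 23 bases before the start site, and Slc7a11 held 2, starting 66 and 47 bases before it and lying on opposite strands. The E-box was found only in the promoter of Slc38a5 among the 6, against 6.02% of all promoters. TGACTCA, the AP-1 site, was in none of the 6 (4.46% of all promoters), and CCAAT was in 2, Glul and Slc7a11 (33.8% of all). A match is a description of letters and not of binding. The promoters with a core or an E-box are shown 5′ to 3′ on the strand of the gene, with the matches in capitals, beside that of Slc38a2, the system A carrier whose RNA was higher in tumors and whose promoter held neither.
Asns (chr6:7693210-7693459, minus strand): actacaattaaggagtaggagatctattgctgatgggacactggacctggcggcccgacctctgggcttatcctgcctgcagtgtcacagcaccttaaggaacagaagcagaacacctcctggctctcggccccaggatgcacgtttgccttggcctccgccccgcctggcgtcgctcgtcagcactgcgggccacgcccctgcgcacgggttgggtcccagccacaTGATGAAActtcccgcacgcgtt
Slc7a11 (chr3:50443614-50443863, minus strand): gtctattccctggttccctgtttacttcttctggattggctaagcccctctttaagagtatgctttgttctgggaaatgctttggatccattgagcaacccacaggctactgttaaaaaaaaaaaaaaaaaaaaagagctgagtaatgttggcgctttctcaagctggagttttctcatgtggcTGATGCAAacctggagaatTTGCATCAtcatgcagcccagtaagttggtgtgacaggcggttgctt
Slc38a5 (chrX:8271131-8271380, plus strand): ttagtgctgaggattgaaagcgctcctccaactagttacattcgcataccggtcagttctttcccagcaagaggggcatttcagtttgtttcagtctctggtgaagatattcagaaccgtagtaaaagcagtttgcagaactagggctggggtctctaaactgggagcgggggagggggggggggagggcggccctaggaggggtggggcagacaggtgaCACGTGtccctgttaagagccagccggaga
Slc38a2 (chr15:96699729-96699978, minus strand): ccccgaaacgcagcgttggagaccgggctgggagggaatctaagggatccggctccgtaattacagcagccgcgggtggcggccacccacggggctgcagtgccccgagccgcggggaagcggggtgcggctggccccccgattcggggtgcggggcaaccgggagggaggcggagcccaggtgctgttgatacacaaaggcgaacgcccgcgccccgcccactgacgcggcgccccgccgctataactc

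Library depth ran from 10692300 to 38618800 counts, and 6 of the 12 ganglion libraries but no tumor library held under 20000000. Both MYCN het libraries were among the 6, so in tumors against MYCN het ganglia the depth class followed the groups. Ganglia expressed the sympathetic neuron genes Th and Dbh (Dbh at 902 to 4268 TPM, a level scaled by gene length and library), whereas tumors had Dbh at 44.1 to 245 TPM. Th was at 391 to 2033 TPM in ganglia and 172 to 548 TPM in tumors, overlapping in MYCN wild-type replicate 1. Of 12 sympathetic neuron markers 9 were called lower and 2 higher in tumors against transgene-free wild-type ganglia. Liver or lymphoid RNA stood out in 2 libraries, which are called below the libraries with other tissue. Tumor replicate 3 held liver RNA, with Alb at 2497 TPM against 0.61 to 165 TPM in the other 15 libraries. Transgene-free wild-type ganglion replicate 2 held lymphoid RNA. It had Ptprc at 230 TPM against 0.99 to 14.2 TPM elsewhere, and Cd79a at 218 TPM against 0 to 2.01 TPM. Its summed myeloid markers were 2031 TPM, against 47.6 to 131 TPM in transgene-free wild-type replicates 1, 3 and 4 (group median 98.0 TPM). Summed fat markers also varied, at 101, 3333 and 386 TPM in MYCN wild-type replicates 1, 3 and 4. They were 255 to 2089 TPM in transgene-free wild-type ganglia and 67.2 to 363 TPM in tumors. Values without the 2 libraries with other tissue are given beside the members' differences between tumors and transgene-free wild-type ganglia. Those fits keep the libraries with high fat markers. The ribosomal RNA gene Rn45s took 8.57 to 12.8% of the counts in tumors and 2.15 to 8.80% in ganglia, and its part in the tumor differences was tested only by leaving it out. Runx1t1 RNA did not separate the libraries labelled het: it was 4.36 to 6.28 TPM in transgene-free het and 2.78 to 4.41 TPM in transgene-free wild-type ganglia, and 8.83 and 16.9 TPM in MYCN het against 7.90 to 70.3 TPM in MYCN wild-type ganglia. These counts are summed over the whole gene and do not read the insertion itself. Levels below are TPM, which are scaled by length and can be compared between genes, and fold changes are fitted on counts with TMM scaling and given as log2. The scales differ in tumors: against transgene-free wild-type ganglia the median of all genes was -0.11 in the count fit and -0.36 on log2(TPM + 1), a shift of -0.25, and 46.8% of the called genes were higher in the count fit against 30.9% on TPM. A level that looks lower in tumors on TPM may therefore show a smaller difference, or none, in the fit.

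The members spanned a wide range of levels (the plot of TPM by library). Glul, Slc3a2 and Asns were the most abundant, with medians over the 16 libraries of 152.0, 101.8 and 88.5 TPM, followed by Slc38a2 at 73.5, Slc7a5 at 55.7 and Slc1a5 at 33.7 TPM. Gls2 and Slc7a11 were low, at 3.32 and 2.73 TPM. Slc38a5 held 0 to 3 counts in every library, which is no more than the limit that a count of 0 allows, so it was not detectable at this depth and was not tested. The other 8 were above that limit in all 16 libraries. Slc7a5 varied least, with a coefficient of variation of 19.0% over the libraries, and Gls2 (72.4%), Slc7a11 (61.7%) and Slc1a5 (55.4%) varied most of the 8.

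**Figure D1:**
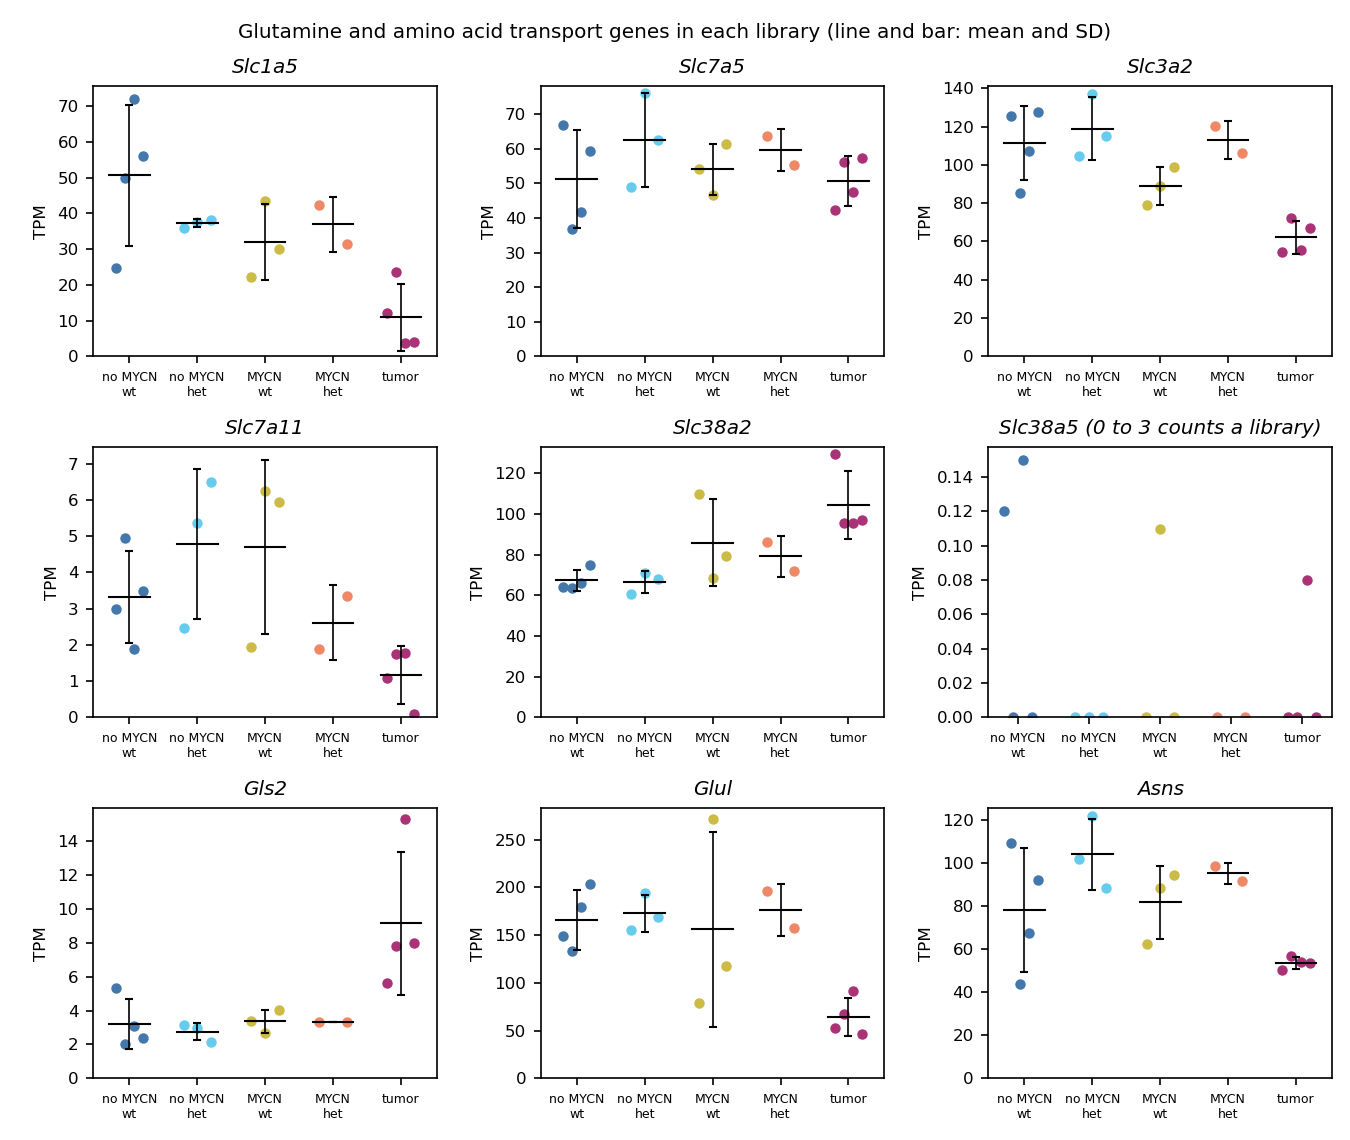
TPM of each of the 9 genes (y axis, 1 panel a gene) in every library, by group (x axis), with points for libraries and a black line and bar for the group mean and SD, which are left out for Slc38a5. Of the 5 group means, that of tumors is the highest for Gls2 and Slc38a2 and the lowest for Slc1a5, Slc7a5, Slc3a2, Slc7a11, Glul and Asns, while Slc7a5 stays between 36.9 and 76.2 TPM throughout.

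The comparison of tumors with transgene-free wild-type ganglia asks how far this gene set differs between the malignant tissue and the normal ganglion. Gls2 and Slc38a2 were higher in tumors, and Slc1a5, Glul and Slc3a2 were lower, so 2 of the 8 members tested rose and 3 fell. Across all 16665 genes tested, 27.0% were called higher and 30.7% lower, and the members' counts are near that background. An unadjusted p under 0.05 was seen for 6 of the 8, against 62.6% of all genes. The median log2 fold change was -0.26 over the 8 members and -0.11 over all genes. Calls are from edgeR's quasi-likelihood test with an adjusted p under 0.05. In bulk tissue, fewer cells of a type and less RNA per cell cannot be told apart, and this holds for each difference below.

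Slc1a5, the main glutamine exchanger of proliferating cells, fell in tumors. It measured 24.7, 49.9, 72.1 and 56.1 TPM in the 4 transgene-free wild-type ganglia, and 36.0, 37.7 and 38.2 TPM in the 3 transgene-free het ganglia. In MYCN ganglia it was 22.2, 43.4 and 30.1 TPM with wild-type Runx1t1 and 42.3 and 31.5 TPM in het. The tumors had 12.2, 23.6, 3.83 and 3.90 TPM. The highest tumor, replicate 2, lay just above the lowest MYCN ganglion and just below the lowest transgene-free ganglion, and replicates 3 and 4 lay far below every ganglion. The fitted log2 fold change against transgene-free wild-type ganglia was -1.78 (SE 0.51, adjusted p = 0.0090, edgeR), a 3.44-fold lower level with a 95% interval of 1.60 to 7.37-fold, and on CPM, counts scaled by library size and TMM factor but not by gene length, the groups overlapped. Leaving out tumor replicate 2 moved it to -2.52, and leaving out both libraries with other tissue to -1.47 (adjusted p = 0.029). The related neutral amino acid exchanger Slc1a4 was also called lower, with a log2 fold change of -0.78 (SE 0.21, adjusted p = 0.0055), from 35.6 ± 13.0 (SD, n = 4) to 15.3 ± 0.64 TPM (SD, n = 4). Markers of some other cell types moved in the same direction. Of the endothelial markers 5 of 7 were called lower, their summed level being 86.3 to 677 TPM in these ganglia and 43.2 to 98.0 TPM in tumors, and of the fibroblast markers 6 of 7, with sums of 1131 to 4429 TPM and 163 to 366 TPM and 1 marker called higher. Of the liver markers 3 of 8 were called higher and none lower, and of the myeloid and erythroid markers none was called. Summed myeloid markers were 273 to 821 TPM in tumors, above the 47.6 to 131 TPM of transgene-free wild-type replicates 1, 3 and 4. They were below the 2031 TPM of replicate 2, which held lymphoid RNA and also gave the highest endothelial sum, 677 TPM. The part of these cell types in the Slc1a5 difference was not tested.

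Slc38a2 (SNAT2), the system A carrier that amino acid shortage is known to induce, rose in tumors. Transgene-free ganglia were tightly grouped, at 64.3, 63.7, 66.3 and 74.9 TPM in wild-type and 60.5, 71.2 and 67.9 TPM in het. MYCN wild-type ganglia had 110.1, 68.6 and 79.2 TPM and MYCN het ganglia 86.3 and 72.0 TPM. The tumors had 129.5, 95.5, 95.6 and 97.2 TPM, all above every transgene-free ganglion, while MYCN wild-type ganglion replicate 1 lay inside the tumor range. Against transgene-free wild-type ganglia the log2 fold change was 1.05 (SE 0.18, adjusted p = 0.00021, edgeR), which is 2.07-fold, and it stayed at 0.93 without tumor replicate 1 and at 1.12 without both libraries with other tissue. On log2(TPM + 1) it was 0.62 (adjusted p = 0.0028, limma).

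Other carriers of the same family moved in both directions. Slc38a1 (SNAT1), another system A glutamine carrier, went from 26.7 to 42.3 TPM in transgene-free wild-type ganglia to 89.3 to 118 TPM in tumors, with a log2 fold change of 1.96 (SE 0.37, adjusted p = 0.00053). Slc38a4 (SNAT4) went from 1.05 to 3.52 TPM to 42.1 to 83.1 TPM, with a log2 fold change of 5.21 (SE 0.86, adjusted p = 0.00019). Slc38a2 thus made up 58.2 to 69.0% of the summed TPM of Slc38a1, Slc38a2 and Slc38a4 in transgene-free wild-type ganglia and 33.6 to 44.7% in tumors, as a description of levels that was not tested. Slc38a11, at a mean of 50.0 TPM in these ganglia and 0.41 TPM in tumors, fell and is not in that sum. MYCN wild-type ganglia fell on both sides, at 34.7 and 41.4% in replicates 1 and 4 and 70.0% in replicate 3. Those replicates also differed in proliferation markers, whose summed level was 1054 and 566 TPM in replicates 1 and 4, 110 TPM in replicate 3, 74.4 to 285 TPM in transgene-free wild-type ganglia and 1270 to 1496 TPM in tumors. The part of proliferating cells in these shares was not tested.

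Slc7a5, the leucine and large neutral amino acid exchanger, did not pass the test. It measured 66.9, 36.9, 41.8 and 59.4 TPM in transgene-free wild-type ganglia and 49.1, 76.2 and 62.5 TPM in the het group. MYCN ganglia had 54.2, 46.6 and 61.5 TPM (wild-type) and 63.9 and 55.3 TPM (het), and tumors 42.2, 56.2, 47.5 and 57.2 TPM. All 5 groups overlapped on this scale. The log2 fold change in tumors against transgene-free wild-type ganglia was 0.42 (SE 0.19, 95% interval 0.0004 to 0.83, adjusted p = 0.080), and without transgene-free wild-type replicate 1 it was 0.58 and was called (adjusted p = 0.026). Without both libraries with other tissue it was 0.36 (adjusted p = 0.17). The direction is not the same on every scale, since against MYCN wild-type ganglia it was 0.29 in the count fit and -0.09 on log2(TPM + 1), neither of them called.

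Slc3a2, the shared heavy chain, was 125, 85.3, 107 and 127 TPM in transgene-free wild-type ganglia and 105, 137 and 115 TPM in the het group. MYCN ganglia had 79.0, 89.2 and 99.0 TPM (wild-type) and 120.2 and 106 TPM (het). Tumors had 54.5, 72.0, 55.6 and 66.9 TPM, each lower than any ganglion. The count fit gave a smaller difference than these levels show, with a log2 fold change of -0.41 (SE 0.14, adjusted p = 0.024, edgeR), 1.33-fold lower, and groups that overlapped on CPM. Without both libraries with other tissue it was -0.42 (adjusted p = 0.025). The call was lost without transgene-free wild-type replicate 1 (-0.33, adjusted p = 0.088) or replicate 4 (-0.36, adjusted p = 0.068), without tumor replicate 1 (-0.36, adjusted p = 0.063) or replicate 3 (-0.34, adjusted p = 0.077), when Rn45s was left out (-0.34, adjusted p = 0.072) and when sex was added as a term (-0.34, adjusted p = 0.080), with the direction kept in each.

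The partners of Slc3a2 moved in different directions. Of the other light chains, Slc7a8 (LAT2) fell from 41.6 ± 13.1 to 6.81 ± 2.87 TPM (SD, n = 4 each; log2 fold change -2.17, SE 0.34, adjusted p = 0.00011), Slc7a7 fell with a log2 fold change of -1.56 (SE 0.37, adjusted p = 0.0026), and Slc7a6 rose with one of 0.96 (SE 0.22, adjusted p = 0.0019). Summed over 6 light chains (Slc7a5, Slc7a6, Slc7a7, Slc7a8, Slc7a10 and Slc7a11), the first of these held 35.8 to 43.5% of the TPM in transgene-free wild-type ganglia, 37.9 to 52.8% in MYCN wild-type ganglia and 56.7 to 65.3% in tumors. In each tumor Slc7a5 alone held more of the light chain RNA than the other 5 together. The summed light chains were 101 to 122% of the Slc3a2 level in transgene-free wild-type ganglia and 130 to 145% in tumors. They were 113 to 132% in transgene-free het, 130 to 139% in MYCN wild-type and 120 to 125% in MYCN het ganglia, so MYCN wild-type ganglia overlapped the tumors. These shares are descriptions and were not tested. Slc1a4, Slc7a6 and Slc7a7 were singled out after their values were seen.

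**Figure D2:**
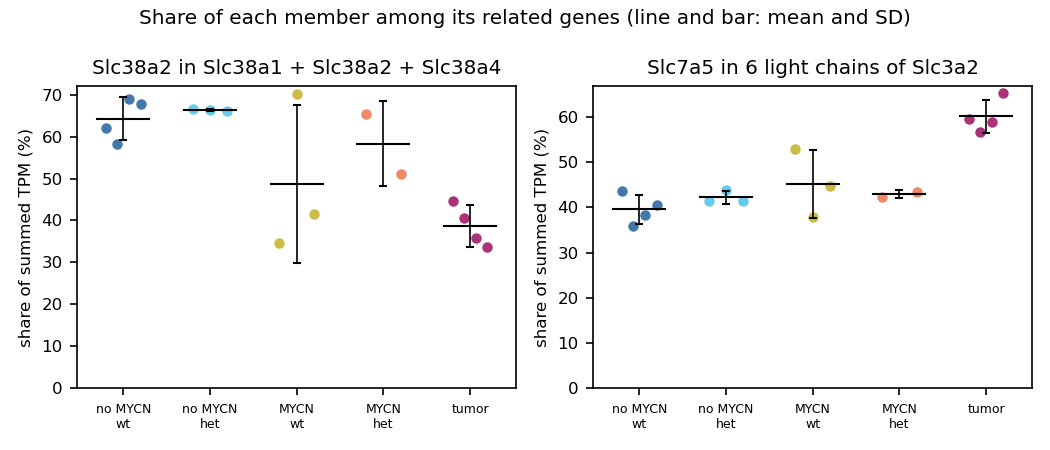
Share (y axis, percent of summed TPM) of Slc38a2 in 3 Slc38 carriers and of Slc7a5 in 6 light chains of Slc3a2, for every library by group (x axis), with the group mean and SD as line and bar. In tumors Slc38a2 holds 33.6 to 44.7% and Slc7a5 56.7 to 65.3%, and MYCN wild-type ganglia are spread widely for Slc38a2.

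Slc7a11, the cystine importer, was low and variable. It measured 2.98, 4.94, 1.89 and 3.48 TPM in transgene-free wild-type ganglia, 2.47, 5.37 and 6.50 TPM in the het group, 1.93, 6.24 and 5.94 TPM in MYCN wild-type ganglia and 1.88 and 3.34 TPM in MYCN het ganglia. Tumors had 1.09, 1.74, 1.77 and 0.08 TPM, the last of these from 15 counts in replicate 4. Every tumor lay below every ganglion on TPM, yet the log2 fold change of -1.11 (SE 0.66, 95% interval -2.52 to 0.30, adjusted p = 0.16) did not pass the test in the count fit, nor did it without both libraries with other tissue (-1.04, adjusted p = 0.25). It was called on log2(TPM + 1), at -1.04 (adjusted p = 0.035, limma), and with a term for sex, at -1.99 (adjusted p = 0.024).

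Gls2, the glutaminase known from liver and as a p53 target, had the largest increase among the members. It measured 5.34, 2.05, 3.06 and 2.38 TPM in transgene-free wild-type ganglia, 3.14, 2.99 and 2.16 TPM in the het group, 3.41, 2.67 and 4.03 TPM in MYCN wild-type ganglia and 3.31 and 3.33 TPM in MYCN het ganglia. Tumors had 5.60, 7.80, 15.3 and 7.97 TPM. All 4 tumors were above all 12 ganglia, and tumor replicate 1 only narrowly above transgene-free wild-type replicate 1. The log2 fold change was 1.95 (SE 0.37, adjusted p = 0.00049, edgeR), which is 3.86-fold with a 95% interval of 2.24 to 6.65-fold. The highest value came from tumor replicate 3, the library with liver RNA, where 8 liver markers summed to 7781 TPM against 2.78 to 82.0 TPM in the other tumors. Without that library the log2 fold change was 1.62 (adjusted p = 0.0018), and without both libraries with other tissue it was 1.48 (adjusted p = 0.0033), so the call did not rest on the library with liver RNA.

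Glul, glutamine synthetase, fell in tumors. It measured 149, 134, 179 and 203 TPM in transgene-free wild-type ganglia and 155, 194 and 169 TPM in the het group. MYCN wild-type ganglia were widely spread, at 79.0, 272 and 118 TPM, with MYCN het ganglia at 196 and 157 TPM. The MYCN wild-type ganglion with the highest Glul, replicate 3, also had the highest summed fat markers, 3333 TPM against 101 and 386 TPM in replicates 1 and 4. The part of fat tissue in its Glul level was not tested. Tumors had 52.3, 67.8, 91.5 and 46.5 TPM, below all transgene-free ganglia, while MYCN wild-type replicate 1 lay within the tumor range. The log2 fold change was -0.94 (SE 0.29, adjusted p = 0.014, edgeR), 1.92-fold lower, and -1.20 without both libraries with other tissue (adjusted p = 0.0081). Glial markers fell with it, 9 of 12 being called lower, with sums of 4458 to 7604 TPM in transgene-free wild-type ganglia and 912 to 3972 TPM in tumors. Sox10, the defining factor of satellite glia and Schwann cells, was 56.7 to 187 TPM in transgene-free wild-type ganglia and 0.73 to 2.91 TPM in tumors. The part of the glia in the Glul difference was not tested.

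Asns, asparagine synthetase, was 110, 43.8, 67.6 and 92.4 TPM in transgene-free wild-type ganglia and 102, 122 and 88.6 TPM in the het group. MYCN ganglia had 62.5, 88.5 and 94.6 TPM (wild-type) and 98.7 and 91.8 TPM (het). Tumors were narrowly spread at 50.2, 56.6, 54.2 and 53.5 TPM. The lowest ganglion was transgene-free replicate 2, which held lymphoid RNA, and the tumors lay between it and the others. The log2 fold change of -0.11 (SE 0.21, 95% interval -0.56 to 0.34, adjusted p = 0.67) did not pass the test (-0.27, adjusted p = 0.23, without both libraries with other tissue), and its sign was positive with a term for sex (0.04) and without transgene-free wild-type replicate 1 (0.10). Atf4 itself was 183 to 219 TPM in transgene-free wild-type ganglia and 159 to 198 TPM in tumors, with a log2 fold change of 0.26 (SE 0.15, adjusted p = 0.15).

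Tumors were next compared with ganglia that carry the same transgene, which asks how the tumor differs from the tissue of the same genotype at 2 weeks. Gls2 and Slc38a2 were higher and Glul was lower in tumors in both comparisons. Against MYCN wild-type ganglia the log2 fold change was 1.81 for Gls2 (SE 0.40, adjusted p = 0.0037), 0.64 for Slc38a2 (SE 0.19, adjusted p = 0.019) and -0.87 for Glul (SE 0.31, adjusted p = 0.045), all from edgeR. Without both libraries with other tissue Gls2 was at 1.48 (adjusted p = 0.0066). These are 2 members higher and 1 lower of 8, where 14.0% of all genes were called higher and 20.5% lower, and 4 had an unadjusted p under 0.05, against 45.1% of all genes. The Slc38a2 call was lost without MYCN wild-type replicate 3 (0.47, adjusted p = 0.10) or replicate 4 (0.54, adjusted p = 0.092), and on log2(TPM + 1) (0.29, adjusted p = 0.17). The Glul call was lost in 12 of the 16 fits that left out 1 library, and without MYCN wild-type replicate 3, the ganglion with the highest Glul, the value was -0.24 (adjusted p = 0.50). It was also lost with Rn45s left out (-0.82, adjusted p = 0.066, edgeR), with only the groups compared and with a replicate block. With only the groups compared, 1 member rather than 2 was called higher.

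The remaining members did not pass the test against MYCN wild-type ganglia in the count fit. Slc1a5 was at -1.14 (SE 0.54, adjusted p = 0.12) and Slc7a11 at -1.60 (SE 0.70, adjusted p = 0.091), and Slc1a5 was called without tumor replicate 2 (-1.87, adjusted p = 0.0092). Slc7a5 was at 0.29, Slc3a2 at -0.14 and Asns at -0.21. On log2(TPM + 1), where 19.4% of the called genes were higher against 40.7% in the count fit, 4 members were called lower: Slc1a5 (-1.76), Slc7a11 (-1.38), Slc3a2 (-0.51) and Glul, where 30.0% of all genes were called lower. Against the 2 MYCN het ganglia the values were 1.94 for Gls2 (SE 0.48, adjusted p = 0.0046), 0.89 for Slc38a2 (SE 0.22, adjusted p = 0.0053) and -0.96 for Glul (SE 0.35, adjusted p = 0.036), with 22.0% of all genes called higher and 23.5% lower. Of the 8 members 4 had an unadjusted p under 0.05, as did 52.7% of all genes. The share of called genes that were higher was 48.4% in the count fit and 27.9% on log2(TPM + 1). Without MYCN het replicate 1 the Gls2 call was lost (1.92, adjusted p = 0.054) and the Glul call with it (-0.82, adjusted p = 0.20). The Glul call was lost in 5 of the 16 fits that left out 1 library and with the sex term. It was also lost with Rn45s left out (-0.91, adjusted p = 0.054, edgeR). Gls2 was at 1.61 without both libraries with other tissue (adjusted p = 0.0064). The other members were not called: Slc1a5 was at -1.25 (adjusted p = 0.10; -1.99, adjusted p = 0.0063, without tumor replicate 2), Slc7a11 at -0.69, Slc3a2 at -0.37, Asns at -0.33 and Slc7a5 at 0.26. On log2(TPM + 1) only 1 member was called higher. On that scale 4 members were called lower, Slc1a5, Slc3a2 (-0.86), Asns (-0.82) and Glul, where 34.5% of all genes were. The Slc38a2 call was lost without MYCN het replicate 2 (0.79, adjusted p = 0.063). The 3 tumor comparisons share the same 4 tumors and are not independent of each other.

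**Figure D3:**
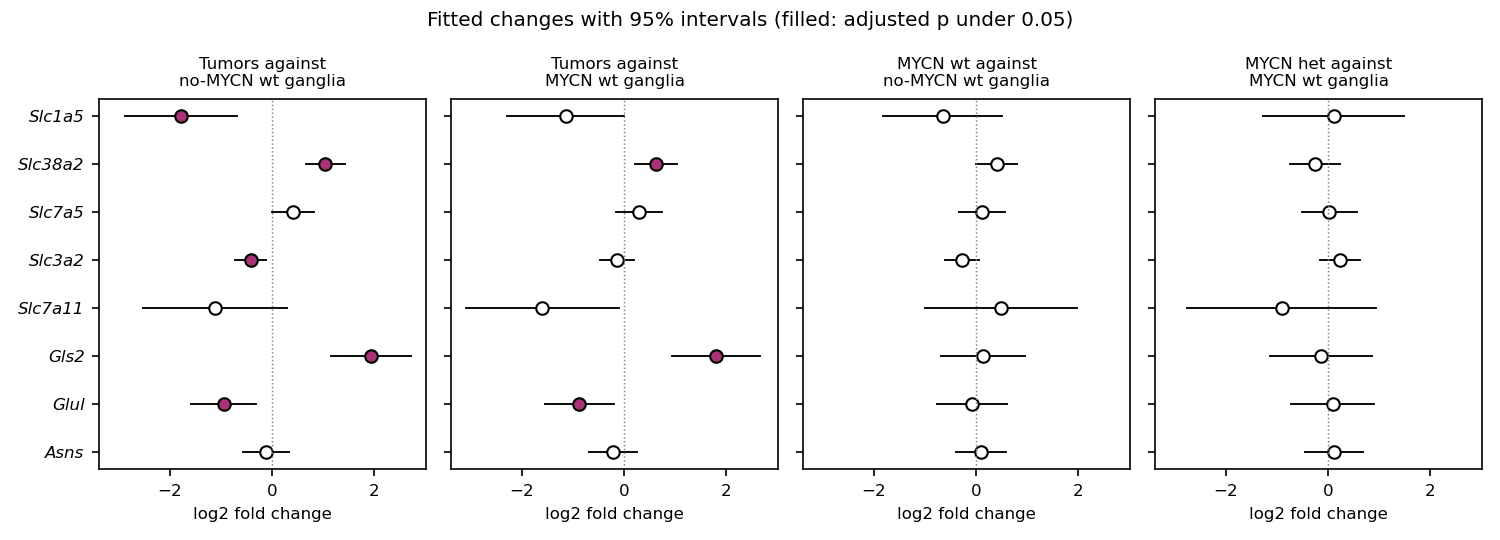
Fitted log2 fold change (x axis) with 95% interval for the 8 tested genes (y axis) in 4 comparisons, with filled points for an adjusted p under 0.05. Filled points appear in both tumor panels (5 and 3 of 8 genes) and in neither ganglion panel, where the intervals of all but Slc38a2 in MYCN against transgene-free ganglia include 0.

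The transgene effect was then read in ganglia at 2 weeks. No member was called between MYCN wild-type and transgene-free wild-type ganglia by edgeR, 1 of 8 had an unadjusted p under 0.05, and DESeq2 called none. Among all genes edgeR called 0.834% higher and 0.102% lower, and DESeq2 called 5.58% higher and 2.13% lower. Without transgene-free wild-type replicate 1, 3 or 4, edgeR called no gene. An unadjusted p under 0.05 was seen for 19.8% of all genes. The member under that limit was Slc38a2, with a log2 fold change of 0.41 (SE 0.19, adjusted p = 0.24), which fell to 0.10 without MYCN wild-type replicate 1, the library with 110.1 TPM. The Gls2 value was 0.13 (95% interval -0.69 to 0.96), so a change of the size seen in tumors lies outside that interval. The Glul value was -0.07 (95% interval -0.75 to 0.60), but it turned on MYCN wild-type replicate 3, without which it was -0.70 (adjusted p = 0.086). For Slc1a5 the value was -0.65 (95% interval -1.82 to 0.52) and for Slc7a11 0.49 (95% interval -1.0 to 1.98), intervals that leave room for changes of more than 2-fold. Slc3a2 was at -0.27, Slc7a5 at 0.12 and Asns at 0.10. Among the related genes, Slc38a4 was called higher in MYCN wild-type ganglia, with a log2 fold change of 4.37 (SE 0.85, adjusted p = 0.038, edgeR). Its level there was 4.07 to 84.1 TPM, and its log2 fold change ran from 3.31 to 4.91 with 1 library left out. The call was lost in 11 of the 16 fits that left out 1 library. In edgeR it was also lost with a replicate block (adjusted p = 0.074), with the sex term (adjusted p = 0.050) and with only the groups compared (adjusted p = 0.38). Further losses came within either depth class and on log2(TPM + 1) (adjusted p = 0.087, limma), and the direction was kept in each of these fits.

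The comparison of MYCN ganglia labelled het with MYCN wild-type ganglia asks whether these genes differ with the Runx1t1 genotype. No member was called by edgeR, none had an unadjusted p under 0.05 and DESeq2 called none. Of all genes, edgeR called 0.0120% higher and none lower, DESeq2 called 0.996% higher and 0.588% lower, and 12.6% had an unadjusted p under 0.05. Slc38a2 was at -0.25 (95% interval -0.73 to 0.24), Gls2 at -0.13 (95% interval -1.12 to 0.86) and Slc3a2 at 0.24 (95% interval -0.16 to 0.63). Slc3a2 did not overlap between the groups on CPM, with both het libraries above the 3 wild-type ones, but it was not called (adjusted p = 0.62, edgeR). The share of all genes without overlap is not given here, and with so few libraries such an order does not show a difference. Slc7a11 had the widest interval, -2.75 to 0.94 around -0.91. The other values were 0.12 for Asns, 0.11 for Slc1a5, 0.09 for Glul and 0.03 for Slc7a5. In 3 further comparisons of ganglia no member was called by edgeR or DESeq2. Of all genes, edgeR called none in them and DESeq2 at most 0.114% higher and 0.0720% lower. No member had an unadjusted p under 0.05 in these comparisons. The share of all genes under that limit was 4.12% for het against wild-type ganglia without the transgene, 1.45% for MYCN against transgene-free het ganglia and 5.62% for the interaction of the transgene with Runx1t1.

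The wider pathway was read from 6 lists that hold 125 genes, a few of them on more than 1 list, of which 122 were tested. In tumors against transgene-free wild-type ganglia, 30 were called higher and 41 lower, that is near the shares over all genes of 27.0% and 30.7%, against which each list below is to be read. The median log2 fold change was -0.19, beside -0.11 for all genes. The amidotransferases, which spend the amide nitrogen of glutamine on nucleotides and amino sugars, had 6 of 9 members higher and 1 lower, with a median of 0.97. Pfas (log2 fold change 2.62, SE 0.27), Cad (2.59, SE 0.32), Ctps (1.63, SE 0.24) and Ppat (1.25, SE 0.19) act in purine or pyrimidine synthesis. Cad went from a mean of 19.1 to 87.1 TPM. The same counts of 6 and 1 came from DESeq2, upper-quartile scaling, log2(TPM + 1) and the fit without both libraries with other tissue.

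Among the other glutamine and glutamate enzymes, 5 of 19 rose and 5 fell, close to the shares over all genes. Aldh18a1 (2.27, SE 0.32) and Pycr1 (1.83, SE 0.39), which act in making proline from glutamate, were among those that rose, with Aldh18a1 going from 19.9 to 71.9 TPM. Gad2, which makes GABA from glutamate, rose by 5.84 (SE 0.95) from 0.42 to 0.64 TPM in transgene-free wild-type ganglia to 10.2 to 37.4 TPM in tumors. Argininosuccinate lyase Asl, which was on the list but does not itself act on glutamine or glutamate, fell by 2.47 (SE 0.33). The GABA transaminase Abat fell by 1.52 (SE 0.26) and ornithine aminotransferase Oat fell by 1.18 (SE 0.18). Without both libraries with other tissue, 5 enzymes rose and 10 fell, against 27.6% and 28.9% of all genes in that fit, so the count of lower enzymes was no longer close to the share over all genes.

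Of the other amino acid transporters 8 of 39 were higher and 20 lower, with a median of -0.68. Slc38a11 fell by 6.45 (SE 0.54), from a mean of 50.0 to 0.41 TPM. The proton-coupled Slc36a1 fell by 3.52 (SE 0.32), from 159 to 10.3 TPM, Slc36a2 fell by 4.31 (SE 1.01) and the neuronal carrier Slc6a17 fell by 4.00 (SE 0.57). Beside Slc38a1 and Slc38a4, the mitochondrial aspartate and glutamate carrier Slc25a13 rose by 3.30 (SE 0.62) and Slc3a1 rose by 3.83 (SE 1.11). The Slc3a1 call was lost without both libraries with other tissue (1.80, adjusted p = 0.086) and with the sex term (3.36, adjusted p = 0.063). Of the pathway genes named by the size of their change, no other lost its call without both libraries. Slc38a3 (SNAT3), a glutamine carrier of liver, reached 45.3 TPM in the tumor with liver RNA and 0.22 TPM in the lowest tumor, and was singled out after its values were seen.

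Of 12 glutathione genes, which follow on from the cystine that Slc7a11 imports, 4 fell and 1 rose. Gclc, the catalytic subunit of the first step, fell by 1.72 (SE 0.25) from 108 to 24.6 TPM and was the only one of the list called in MYCN wild-type against transgene-free wild-type ganglia, at -1.24 (SE 0.27, adjusted p = 0.048). That call was lost in 13 of the 16 fits that left out 1 library. In edgeR it was also lost with a replicate block (adjusted p = 0.074), with the sex term (adjusted p = 0.058) and with only the groups compared (adjusted p = 0.38). Further losses came within either depth class and on log2(TPM + 1) (adjusted p = 0.073, limma), and the direction was kept in each of these fits. The peroxidase Gpx4 fell by 1.21 (SE 0.21) and Txnrd1 rose by 0.88 (SE 0.20). On log2(TPM + 1) 8 of the 12 were called lower, where 39.6% of all genes were. Of the 22 Atf4 targets 7 were higher and 5 lower, and their median was 0.06 in the count fit and -0.35 on log2(TPM + 1). In serine synthesis Psat1 rose by 2.21 (SE 0.23) and Phgdh fell by 2.52 (SE 0.34), from 59.1 to 7.70 TPM. Cth rose by 2.60 (SE 0.67). It was at 0.64 to 1.32 TPM in transgene-free wild-type ganglia and spread widely in tumors, at 1.2 to 11.8 TPM. Ddit4 fell by 1.58 (SE 0.25) and Vldlr fell by 1.87 (SE 0.30). Cebpb fell by 1.80 (SE 0.61), a call that was lost with a term for depth (-0.97, adjusted p = 0.12, edgeR). Of the 25 amino acid sensing genes of the mTORC1 branch 5 were higher and 6 lower, below the shares over all genes in both directions, with a median of -0.03. Fnip2 had the largest rise (0.97, SE 0.17), followed by Tsc1 (0.93, SE 0.12) and Tsc2 (0.81, SE 0.13), and Sesn1 (-0.94, SE 0.21) and Nprl3 (-0.82, SE 0.15) were among those that fell. On log2(TPM + 1) 4 were called higher and 13 lower, against 17.7% and 39.6% of all genes. The adjusted p-values of the genes named as changed in these lists were at most 0.021 in this comparison (edgeR).

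**Figure D4:**
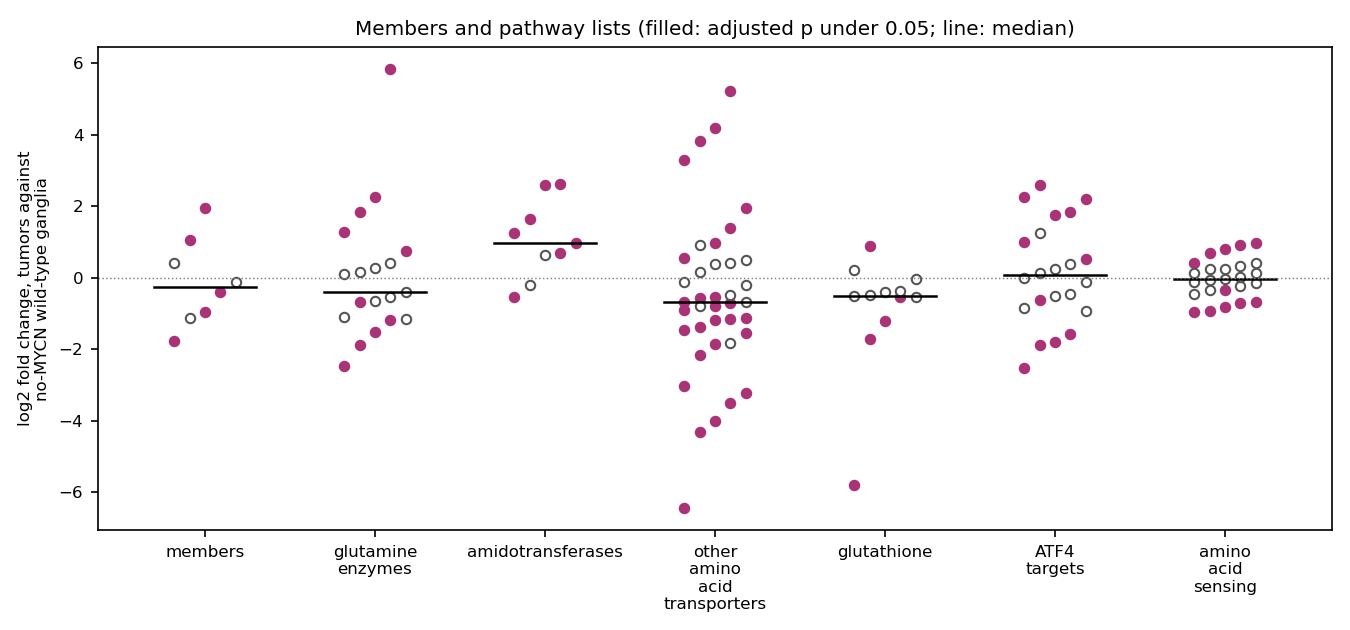
Log2 fold change in tumors against transgene-free wild-type ganglia (y axis) for the 8 tested members and 6 pathway lists (x axis), 1 point a gene, filled for an adjusted p under 0.05, with the list median as a line. The amidotransferase median lies at 0.97 and that of the other transporters at -0.68, while the members run from -1.78 to 1.95.

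Genes with the most similar profile were sought for each member as the root mean square difference of centred log2(TPM + 1) values in all 16 libraries, and 11945 genes averaging at least 5 TPM were searched. Slc7a5 was nearest to Slc7a1, the cationic amino acid transporter CAT1 (0.11), and to Nsfl1c (0.13), compared with 0.27 for the spread of Slc7a5 itself. Slc1a5 was nearest to Tinagl1 (0.37) and Art4 (0.43), against its own spread of 1.10. Slc38a2 was nearest to Tchp and Afg3l1, Slc3a2 to Aar2 and Icmt, Glul to Hibch and Entpd5, and Asns to Atxn10 and Katnal1, at differences of 0.12 to 0.21. Gls2 was nearest to Nudc (0.28) and Noa1 (0.28), and Slc7a11 to Slc35b3 (0.35) and Htatip2 (0.39). The distances for Gls2, Slc1a5 and Slc7a11 are the wider ones. The libraries share groups and depth classes, so likeness across them is a description.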

How the data were processed

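Total RNA of 16 mouse samples was sequenced with a stranded kit (the labels also say polyA RNA). Per the submitters' notes, the authors aligned reads with STAR to mm10 and quantified genes with RSEM. The deposited gene tables hold expected counts (not normalized) and TPM (scaled by length and library). The annotation and strand setting are not given in the sources used here. Expected counts were rounded, 16665 of 24411 genes were kept by filterByExpr, and 5 group means over all libraries were fitted with edgeR 4.0.16 (quasi-likelihood test, TMM, Benjamini-Hochberg adjustment over all genes tested, threshold 0.05) in R 4.3.3. Depth was 10692300 to 38618800 counts a library. A count of 3 was taken as the limit that 0 allows, and intervals are at 95% and come from the fit. PCR copies were not removed by molecular identifiers as far as the sources tell. The methods were tested on simulated data. Members and gene lists were chosen with earlier results of these data known.

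Named beside the 9 members are, of each pathway list, the genes that changed most in tumors against transgene-free wild-type ganglia (up to 4 in each direction, mean of at least 1 TPM, groups not overlapping on CPM), the 2 nearest profiles of each member, and Slc7a8 and Atf4. A few items are not reported here. Alternatives were upper-quartile scaling, DESeq2 1.42.0, no filter, 10 counts in every library, only the groups compared, a replicate block, terms for depth or sex (sex read from Ddx3y RNA), Rn45s left out, limma 3.58.1 on log2(TPM + 1) or log2(TPM + 0.1), and each library left out in turn. Ddx3y was at 16.45 to 20.19 TPM in tumor replicates 1 to 3 and at 0 TPM in replicate 4. Among ganglia it was at 28.35 to 33.04 TPM in transgene-free wild-type replicate 2, transgene-free het replicate 4 and MYCN wild-type replicate 4. Every other ganglion had at most 0.17 TPM, so sex was spread unevenly between tumors and ganglia. Added after seeing the data were leaving out both libraries with other tissue, and only libraries over or under 20000000 counts.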

Additional observations from a re-analysis of the deposited data

Results flagged for a closer look

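Slc38a2 in tumor replicate 1 stood apart from the other tumors, at 129.49 TPM against 95.49 to 97.19 TPM in replicates 2 to 4. It was the only group of 4 among the 16 tested (8 members, 2 groups) whose extreme value passed Dixon's 95% limit for 4 samples, and chance flags about 1 in 20 groups. Without this library Slc38a2 was higher in tumors than in transgene-free wild-type ganglia by 0.93 on the log2 scale, against 1.05 with it.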

How the results depend on the processing

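In tumors against transgene-free wild-type ganglia, 2 members higher and 3 lower, the counts stayed within 1.5 times under each alternative, with 2 to 3 higher and 2 to 3 lower when 1 library was left out. Against MYCN wild-type ganglia (2 higher, 1 lower), 1 was higher with only the groups compared and on both TPM scales, and 0 were lower with only the groups compared, with the replicate block and without Rn45s, but 4 on both TPM scales. Leaving out 1 library gave 1 to 2 higher and 0 to 1 lower. Against MYCN het ganglia (2 higher, 1 lower), 1 was higher on both TPM scales, and 2 were lower with only the groups compared, 0 with the sex term and without Rn45s, and 4 on both TPM scales. Leaving out 1 library gave 1 to 2 higher and 0 to 1 lower, and 0 in every ganglion comparison. The cause was not tested.

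Signs turned for values that were not called. In tumors against transgene-free wild-type ganglia, Asns was 0.041 with the sex term and -0.28 to 0.10 with 1 library left out. Slc7a5 was -0.091 on log2(TPM + 1) and -0.092 on log2(TPM + 0.1) against MYCN wild-type ganglia and -0.23 and -0.24 against MYCN het ganglia. In MYCN against transgene-free wild-type ganglia, Slc7a11 was -0.91 in libraries under 20000000 counts, Glul 0.082 in those over 20000000, and Asns -0.11 under 20000000 and -0.075 without both libraries with other tissue. With 1 library left out, Glul ran from -0.70 to 0.21 and Asns from -0.075 to 0.30. In MYCN het against MYCN wild-type ganglia, Slc1a5 was -0.19 with the replicate block, Slc7a5 -0.026 with the sex term and -0.14 under 20000000, and Slc7a11 0.18 under 20000000. With 1 library left out, Slc1a5 ran from -0.11 to 0.37, Slc7a5 from -0.090 to 0.11, Slc38a2 from -0.41 to 0.065 and Glul from -0.19 to 0.72.

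Replicate numbers did not pair the samples: deviations of same-numbered samples correlated at a median of -0.014 over 25 pairs (-0.32 to 0.32). With the block, Glul in tumors against MYCN wild-type ganglia was -0.74 (adjusted p = 0.054, edgeR). On log2(TPM + 1) fewer genes were called higher in tumors: 2950 against 4494 in the count fit (transgene-free wild-type ganglia), 1206 against 2340 (MYCN wild-type) and 2230 against 3668 (MYCN het). Over all genes the count for the MYCN effect in wild-type ganglia varied with the setting: 156 genes were called by edgeR, 1285 by DESeq2, 238 with upper-quartile scaling, 236 without Rn45s, 308 with the depth term, 476 without both libraries with other tissue, 50 with the sex term, 16 on log2(TPM + 1), and 0 with the block, with only the groups compared, or within libraries over or under 20000000 counts. For that effect, leaving out transgene-free wild-type replicate 1, 3 or 4 gave 0 genes, and leaving out replicate 2 gave 572 higher and 103 lower. In MYCN het against MYCN wild-type ganglia the numbers were 2 by edgeR, 264 by DESeq2 and 16 on log2(TPM + 1). Where an arm was left with 1 library, it was assumed to vary like the other groups. Depth limits Slc38a5.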
